A study of Arabidopsis thaliana with 6 samples.

Results

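RNA-directed DNA methylation is the plant pathway in which short RNAs guide the methylation of DNA, and 10 genes of its small RNA arm were examined in seedlings of the Arabidopsis thaliana mutant epic2. The genes were picked by name for their role, with earlier results of these data known. NRPD1 (AT1G63020), CLSY1 (AT3G42670), RDR2 (AT4G11130) and DCL3 (AT3G43920) belong to siRNA production. NRPE1 (AT2G40030) belongs to RNA polymerase V, which DRD1 (AT2G16390) and DMS3 (AT3G49250) help, and NRPD2 (AT3G23780) to RNA polymerases IV and V. The Argonaute genes are AGO4 (AT2G27040) and AGO6 (AT2G32940). All 10 had a row of their own among the 26765 rows of the authors' deposited table and all 10 were among the 18916 rows that the authors tested. In that table NRPD1, NRPE1, NRPD2 and CLSY1 stand under the symbols NRPD1A, NRPD1B, NRPD2A and CHR38.

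The study set plants of the genotype epic2 against wild type plants, both in the Col-0 background, with 3 samples of each labelled as biological replicates. Above-ground tissue was taken from seedlings at an age of 17 days, after growth at 24 °C under 16 h of light per day. The labels do not name the gene altered in epic2, so its own level was not examined, and whether the samples of a genotype came from separate growth trays is not stated. The table names its groups epic2 and silex, and no label uses the name silex. It was read here as the wild type, the only other of the 2 genotypes in the labels. If silex stands for other plants, each direction below is against those. The authors gave 1 FPKM value per gene and group (mapped fragments relative to transcript length and library size), pooled over the 3 samples, so the value of a single sample and the spread around a level are unknown, as is the sequencing depth.

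In this pathway RNA polymerase IV makes short transcripts, the polymerase RDR2 copies them into double strands, and the Dicer enzyme DCL3 cuts these into small interfering RNAs (siRNAs). The siRNAs are loaded into Argonaute proteins such as AGO4 and AGO6, which find their targets on RNA made by a further plant-specific enzyme, RNA polymerase V, and bring in the methyltransferase DRM2. In leaves and seedlings the pathway is known for methylating transposons and repeats.

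In epic2 seedlings 3 genes of siRNA production, CLSY1, RDR2 and DCL3, and the Argonaute gene AGO4 had higher transcript levels, by 1.84, 1.42, 1.33 and 1.20 times. The other 6 genes did not pass the authors' threshold, a q-value of 0.05. Of the 10 genes 4 (40%) were thus called higher and 0 lower. At an unadjusted p of 0.05 in the authors' Cuffdiff test 5 were higher and 0 lower, as were 13.8% and 12.4% of all tested rows. Over all tested rows 18.3% were called, 9.51% higher and 8.8% lower in epic2. Among the 11677 tested rows within the range of mean FPKM of these genes, 13.8% were called, 5.07% higher and 8.68% lower. Those rows were matched by level alone, not by standard error or transcript length, so the share among rows of like error is unknown. The median log2 fold change of the 10 genes was 0.20, beside 0.01 over all tested rows with a finite value. Of the 10 values 8 were above 0, as were 52.2% of those rows.

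The stretch of DNA before RDR2, DCL3 and AGO4, all called higher, is shown because their transcripts moved in the same direction. The sequences are RefSeq's, in build TAIR10.1, and run 5′ to 3′ on the gene's strand to the base before the annotated start. Capitals mark any match on either strand to CACGTG (the G-box), TTTCCCGC or TTTGGCGC (E2F sites), AAACCCTA (the telo box), TGGGCC (site II) or TATAAA (the TATA motif). For RDR2 these are the bases chr4:6780244-6780448 on the plus strand, for DCL3 chr3:15753137-15753386 on the plus strand and for AGO4 chr2:11542392-11542641 on the minus strand.
RDR2: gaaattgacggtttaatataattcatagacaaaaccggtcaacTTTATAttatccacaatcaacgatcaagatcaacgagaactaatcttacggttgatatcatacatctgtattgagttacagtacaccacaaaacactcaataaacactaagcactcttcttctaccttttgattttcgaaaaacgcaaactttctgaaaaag
DCL3: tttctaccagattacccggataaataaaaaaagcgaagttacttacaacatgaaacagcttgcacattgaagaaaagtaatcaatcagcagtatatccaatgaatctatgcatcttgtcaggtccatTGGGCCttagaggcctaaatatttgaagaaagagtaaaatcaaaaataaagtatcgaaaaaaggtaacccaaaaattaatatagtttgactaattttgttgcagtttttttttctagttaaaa
AGO4: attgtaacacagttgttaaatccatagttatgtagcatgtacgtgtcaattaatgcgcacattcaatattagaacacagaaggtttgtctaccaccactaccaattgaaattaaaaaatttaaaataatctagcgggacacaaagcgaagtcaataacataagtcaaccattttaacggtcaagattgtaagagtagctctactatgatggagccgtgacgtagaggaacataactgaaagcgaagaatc
The RDR2 stretch is 205 bases long, since the neighbouring gene AT4G11120 covers what lies further upstream, and the others have 250 bases. The TATA motif stood on the strand opposite to the gene, seen here as TTTATA, 162 bases before the start of RDR2. This was counted to the first base of the match. Of the 27443 protein-coding genes on the nuclear chromosomes, 47.3% had TATAAA on either strand in the 250 bases before their start. So did 3 of the 9 pathway genes other than CLSY1, all 3 on the strand opposite to the gene. TGGGCC stood 123 bases before the start of DCL3, and was found before 2 of the 9 genes and 13.7% of all. AGO4 had none of the motifs, and no motif searched for was common to the 3 sequences. CACGTG, TTTCCCGC, TTTGGCGC and AAACCCTA were found before 0 of the 9 genes, and before 6.49%, 0.619%, 0.361% and 4.49% of all genes. The overlap of one motif with another was not barred. The 250 bases before the start held 20% G and C for NRPD2 and between 25.2% and 35.6% for the other 8 genes, beside a median of 31.2% over all genes. A match describes these letters and does not show that a protein binds there.

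CLSY1 encodes a chromatin remodelling protein that helps bring RNA polymerase IV to its sites. It stood at 2.62 FPKM in epic2 and 1.42 FPKM in silex. Its log2 fold change in the authors' deposited table was 0.88, with a standard error of 0.25 implied by their test statistic and q = 0.00371. The 95% interval of the fold, from that error, ran from 1.30 to 2.59. This was the largest of the 10 changes, and 97.6% of tested rows with a finite value had a lower log2 fold change. CLSY1 was also the one gene of the 10 called at a q of 0.01. The authors' row covers chromosome 3 from 14751250 to 14760557 in TAIR10 and shares this interval with AT3G42660, a neighbour that stood at 5.84 FPKM in epic2 and 5.93 FPKM in silex. The change in the neighbour was -0.02 on the log2 scale (q = 0.963 in the authors' deposited table), and no annotated exon of another gene overlaps the longest CLSY1 transcript.

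The other CLASSY genes were far lower. CLSY2 had 0.471 FPKM in epic2 and 0.466 FPKM in silex and was not called (q = 0.986 in the authors' deposited table). CLSY3, at 0.211 FPKM in epic2 and 0.278 FPKM in silex, and CLSY4, at 0.371 FPKM in epic2 and 0.318 FPKM in silex, were left out of the authors' test as having too little data. CLSY3 is best known from reproductive tissues. The summed level of the family was 3.67 FPKM in epic2 and 2.49 FPKM in silex, and CLSY1 made up 71.3% of it in epic2 and 57.3% in silex.

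RDR2, the RNA-dependent RNA polymerase that copies transcripts of RNA polymerase IV, had 3.29 FPKM in epic2 and 2.32 FPKM in silex (chromosome 4, 6780522 to 6784440). Its log2 fold change in the authors' deposited table was 0.51 at q = 0.0131, and the implied standard error was 0.17. The interval of the fold ran from 1.13 to 1.78. RDR1 and RDR6, which belong to other small RNA pathways and to defence against viruses, were at 4.13 and 9.64 FPKM in epic2 and at 4.25 and 9.31 FPKM in silex, and neither was called. RDR2 was the lowest of these 3 in both groups.

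DCL3 had 3.28 FPKM in epic2 and 2.46 FPKM in silex (chromosome 3, 15753548 to 15763330). Its log2 fold change in the authors' deposited table was 0.41, with an implied standard error of 0.15, q = 0.0293 and a fold between 1.08 and 1.63. RDR2 and DCL3, which act one after the other, stood at nearly equal levels, with a ratio of RDR2 to DCL3 of 1.01 in epic2 and 0.941 in silex. DCL1, the Dicer of microRNAs, was not called at 8.84 FPKM in epic2 and 8.98 FPKM in silex. DCL4, which makes other siRNAs, was not called at 5.29 FPKM in epic2 and 4.56 FPKM in silex. In the longest DCL3 transcript 43 of 4890 bases overlap exons of AT3G43930 on the other strand, and that neighbour stood at 0.109 FPKM in epic2 and 0.123 FPKM in silex.

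NRPD1, the largest subunit of RNA polymerase IV and the first step of siRNA production, was not among the called genes. It had 1.62 FPKM in epic2 and 1.75 FPKM in silex, and the authors' deposited table gives a log2 fold change of -0.12 (q = 0.705), for which the implied standard error was 0.17. The interval of the fold, 0.727 to 1.17, leaves room for a change of either sign. Whether the change of NRPD1 differed from those of CLSY1, RDR2 and DCL3 was not tested.

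**Figure D1:**
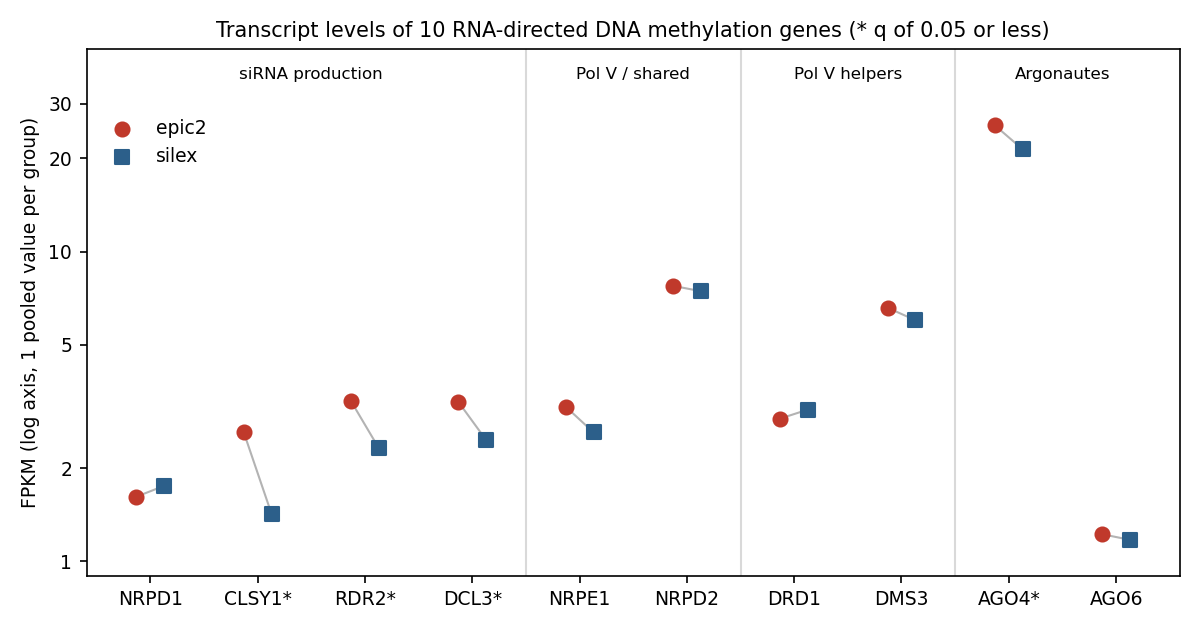
FPKM of the 10 genes (vertical log axis) in epic2 (red circles) and silex (blue squares), 1 pooled value per group and so with no error bar, ordered by role along the horizontal axis. An asterisk marks q of 0.05 or less. CLSY1, RDR2 and DCL3 show the widest gaps, followed by NRPE1, which was not called, and AGO4, which was, and AGO4 stands far above the rest in both groups.

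RNA polymerase V makes the longer, scaffold-like RNA at target sites. Its largest subunit NRPE1 had 3.16 FPKM in epic2 and 2.61 FPKM in silex (chromosome 2, 16714494 to 16723583). Its log2 fold change was 0.28 with an implied standard error of 0.13, and it did not pass in the authors' deposited table after adjustment (p = 0.0288, q = 0.0982). The fold lay between 1.02 and 1.44. NRPE1 was thus the 1 gene among the 6 uncalled ones whose interval excluded no change, before any adjustment for the number of genes tested. NRPD2, the second-largest subunit of both plant-specific polymerases, had 7.76 FPKM in epic2 and 7.45 FPKM in silex and was not called (log2 fold change 0.06, implied standard error 0.16, q = 0.859 in the authors' deposited table).

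Both largest subunits were low beside their counterpart in RNA polymerase II, the enzyme of messenger RNA. NRPB1 stood at 21.5 FPKM in epic2 and 23.5 FPKM in silex, 13.3 times the FPKM of NRPD1 in epic2 and 13.4 times in silex. Against NRPE1 the ratio of NRPB1 was 6.81 in epic2 and 8.99 in silex. NRPE1 exceeded NRPD1 by 1.95 times in epic2 and 1.49 times in silex. The shared subunit NRPD2 stood at 4.79 times the level of NRPD1 in epic2 and 4.25 times in silex.

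DRD1, DMS3 and RDM1 form the complex that RNA polymerase V needs to transcribe. DRD1, a chromatin remodelling protein of the same large family as CLSY1, had 2.89 FPKM in epic2 and 3.09 FPKM in silex. DMS3, a hinge-domain protein related to those of chromosome structure complexes, had 6.59 FPKM in epic2 and 6.01 FPKM in silex. Neither was called, with log2 fold changes of -0.10 and 0.13, implied standard errors of 0.21 and 0.16, and q of 0.813 and 0.613 in the authors' deposited table. The intervals of their folds ran from 0.701 to 1.25 for DRD1 and from 0.886 to 1.36 for DMS3. RDM1 stood above both, at 19.2 FPKM in epic2 and 21.1 FPKM in silex, and was not called. The DRD1 row shares its interval with BLH7, which was not called either, at 13.4 FPKM in epic2 and 14.3 FPKM in silex.

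AGO4, the main Argonaute of the pathway, had 25.6 FPKM in epic2 and 21.4 FPKM in silex (chromosome 2, 11536534 to 11542357). Its log2 fold change in the authors' deposited table was 0.26, with an implied standard error of 0.09, q = 0.0229 and a fold between 1.06 and 1.35. AGO6, which is known from Arabidopsis to act beside AGO4 and mainly in meristems, had 1.22 FPKM in epic2 and 1.17 FPKM in silex. It was not called (log2 fold change 0.06, implied standard error 0.25, q = 0.910 in the authors' deposited table), and its fold lay between 0.740 and 1.47, an interval that contains the fold of AGO4. The level of AGO4 was 20.9 times that of AGO6 in epic2 and 18.2 times in silex. AGO8 and AGO9, the remaining genes of this clade in the lists, were left out of the authors' test at 0.0853 and 0.337 FPKM in epic2 and 0.0610 and 0.265 FPKM in silex. AGO4 made up 93.9% of the summed FPKM of the clade in epic2 and 93.4% in silex. In bulk RNA fewer cells that express a gene and less RNA per cell cannot be told apart.

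**Figure D2:**
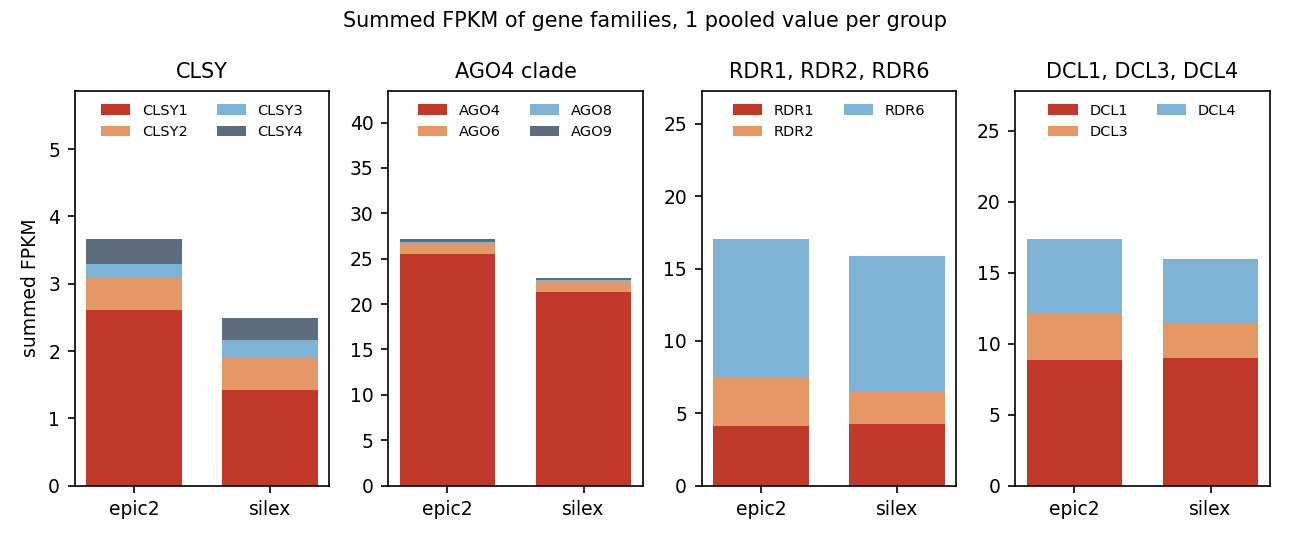
Summed FPKM (vertical axis, from 0) of the CLASSY genes, the AGO4 clade, and 3 RDR and 3 DCL genes with rows of their own, with epic2 as the left and silex as the right bar in each panel. CLSY1 fills most of the CLASSY bar in both groups, with 71.3% in epic2 and 57.3% in silex, and AGO4 nearly all of its clade.

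The levels of the 10 genes spanned from 1.22 FPKM for AGO6 to 25.6 FPKM for AGO4 in epic2, and from 1.17 FPKM for AGO6 to 21.4 FPKM for AGO4 in silex. AGO4, NRPD2 and DMS3 were the 3 highest in both groups, in that order. In epic2 they were followed by RDR2, DCL3, NRPE1, DRD1, CLSY1, NRPD1 and AGO6. In silex the order was DRD1, NRPE1, DCL3, RDR2, NRPD1, CLSY1 and AGO6. With pooled values, neighbours in these orders cannot be told apart by a spread. Of the 10 genes 9 lay below 10.9 FPKM, the median level of tested rows, and 6 lay in the lowest of 5 equal bins of those rows by level, which ends at 2.90 FPKM. The implied standard errors of those 6 genes were between 0.13 and 0.25, beside a median of 0.44 in that bin. Smaller changes can thus be called for them than for most rows of that bin. The median log2 fold change moved with level over tested rows, at -0.07 in the lowest bin and 0.12 in the highest. With the median of its own bin taken off, the change of CLSY1 was 0.95, that of RDR2 0.57 and that of DCL3 0.48, and all 3 passed. Under this centring, in a normal test across all tested rows with Benjamini-Hochberg adjustment, AGO4 was no longer called (q = 0.0568), while NRPE1 was (q = 0.0438).

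The count of called pathway genes depended on the rule. After centring within level bins 4 of the 10 were called higher, with 6.04% of all tested rows. After centring on the median of tested rows of 1 FPKM or more 2 were (CLSY1 and RDR2), with 7.89%. At a q of 0.01 CLSY1 alone was called, with 5.92% of tested rows higher. Bonferroni adjustment left 0 of the 10 (1.7% of rows), as did a minimum of 1.5-fold on the log2(FPKM + 1) scale (1.81% of rows). At a q of 0.10 NRPE1 joined the 4, with 11.8% of rows. The 4 genes were also called when p-values were adjusted by Benjamini-Hochberg over the 18916 tested rows (8.8% of rows higher) or over those of 1 FPKM or more (9.34%), and at the authors' q among rows of 1 FPKM or more (9.96%).

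**Figure D3:**
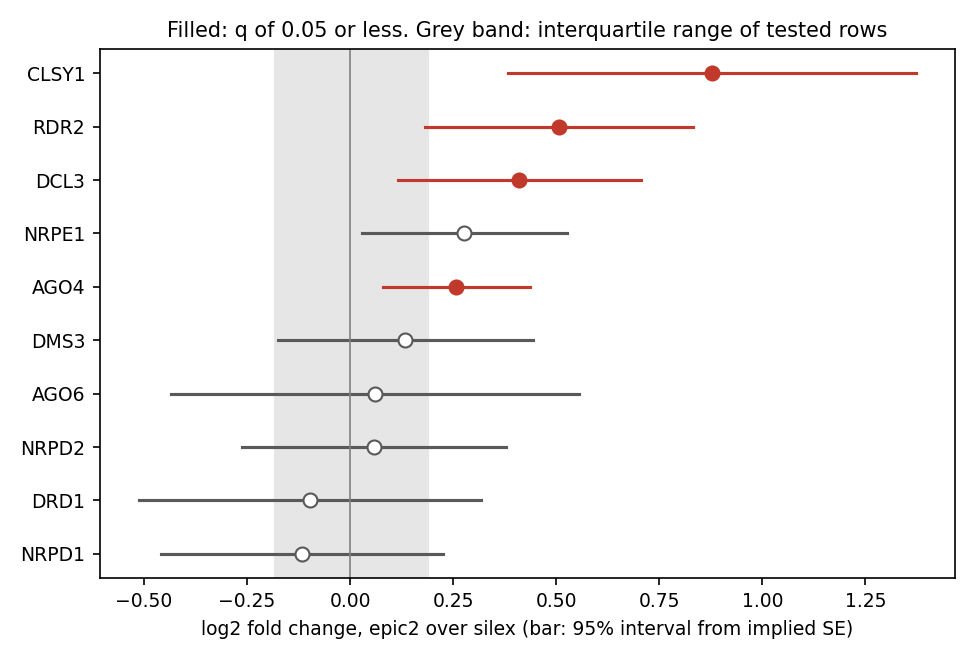
Log2 fold change of each of the 10 genes, epic2 over silex (horizontal axis), with the 95% interval from the implied standard error as a bar. Filled red points passed a q of 0.05. The grey band spans the interquartile range of tested rows, from -0.18 to 0.19, and the points of CLSY1, RDR2, DCL3, NRPE1 and AGO4 lie to its right.

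**Figure D4:**
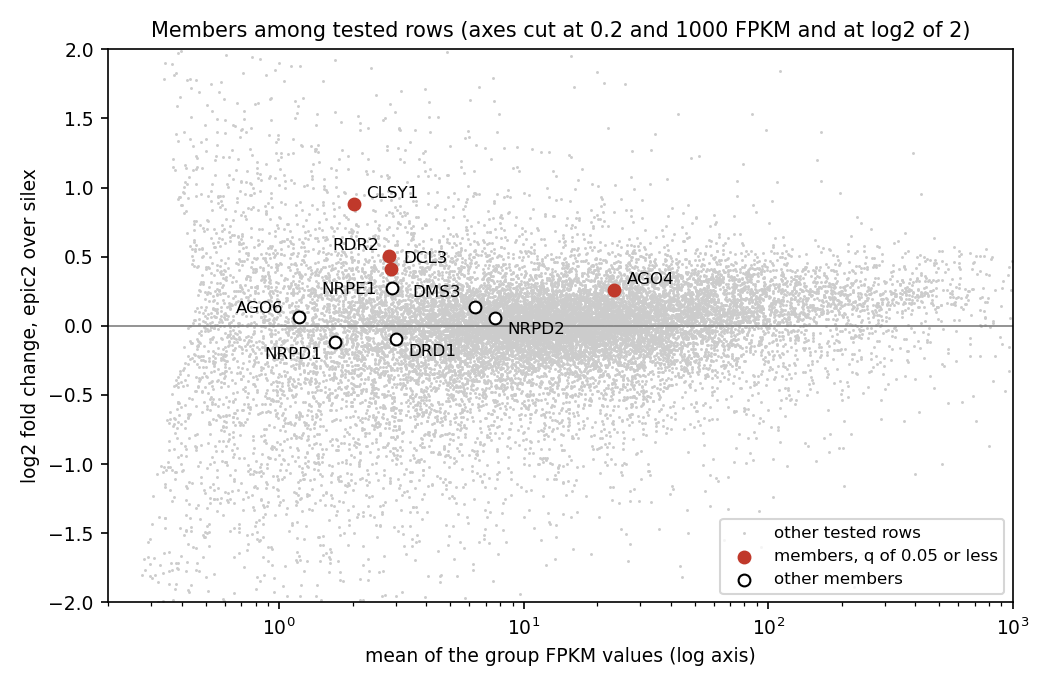
Log2 fold change (vertical axis) against the mean FPKM of the groups (horizontal log axis) for tested rows (grey), with the 10 genes marked and filled red where called. Of the 10 genes, 9 sit in the lower range of levels, and AGO4 is the 1 above the median level of 10.9 FPKM.

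In RefSeq the longest transcripts of the 10 genes run from 3104 bases for DRD1 to 6517 bases for NRPE1, and have from 4 exons in RDR2 to 24 in DCL3. Since reads of near-identical copies can be split between genes, each transcript was compared with the genome in windows of 50 bases, the length that the library label SR50 was taken to mean. For NRPD1, RDR2, DCL3, CLSY1, AGO4, AGO6, DRD1 and DMS3, 0 windows of the longest RefSeq transcript had an exact match elsewhere. For NRPE1 0.835% did. NRPD2 shared 8.35% of its windows with the transcript of NRPD2B, a close copy of the gene, so the division of reads between them is uncertain for that part. NRPD2B was called higher, at 4.64 FPKM in epic2 and 3.26 FPKM in silex (log2 fold change 0.51, implied standard error 0.19, q = 0.0279 in the authors' deposited table). Strandedness is not stated in the labels, and reads of overlapping genes on opposite strands cannot be told apart. For DMS3 the longest RefSeq transcript runs through emb1796 on the other strand, while the authors' row covers chromosome 3 from 18258261 to 18260998 and does not reach it.

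Among the other genes of the pathway the share called higher was near that over all tested rows. Of 33 such genes 31 had a row of their own, 26 were tested, and 2 (7.69%) were called higher and 0 lower, beside the 9.51% and 8.8% over all tested rows. At an unadjusted p of 0.05 in the same test 5 of the 26 were higher and 0 lower, beside 13.8% and 12.4% of all tested rows. Their median log2 fold change was 0.04. Among 5 tested genes listed as subunits of RNA polymerases IV and V, the median log2 fold change was 0.23 and NRPD2B was the 1 called. NRPD2B is the close copy of NRPD2, which was itself not called (q = 0.859 in the authors' deposited table). Whether NRPD2B serves in these polymerases was not examined. NRPE9B, NRPE7, NRPD7 and NRPE3B were not called, at 10.4, 6.19, 2.80 and 0.455 FPKM in epic2 and 10.9, 4.72, 2.39 and 0.755 FPKM in silex. The authors' deposited table lists NRPE9B under the symbol NRPB9B. Among 4 further tested genes of siRNA production, with a median of 0.06, 0 were called by the authors' Cuffdiff test, and 0 passed a p of 0.05 before adjustment. SHH1, which reads the histone mark at sites of RNA polymerase IV, stood at 8.01 FPKM in epic2 and 7.48 FPKM in silex. HEN1, the methyltransferase that protects small RNA ends, had 4.96 FPKM in epic2 and 4.54 FPKM in silex, and RDM4 had 8.54 FPKM in epic2 and 8.73 FPKM in silex.

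Of 17 tested genes of targeting and methylation, with a median log2 fold change of 0.01, 1 was called higher, beside 9.51% of all tested rows. At an unadjusted p of 0.05 in the authors' Cuffdiff test 4 of the 17 were higher and 0 lower, beside 13.8% and 12.4% of all tested rows. The called gene was FDM1. FDM1, a double-stranded RNA binding protein that works with IDN2, had 13.03 FPKM in epic2 and 10.45 FPKM in silex (log2 fold change 0.32, implied standard error 0.11, q = 0.0196 in the authors' deposited table). IDN2 itself had 13.7 FPKM in epic2 and 11.1 FPKM in silex and was not called (q = 0.146 in the authors' deposited table). The methyltransferase gene DRM2, the end point of the pathway, had 5.86 FPKM in epic2 and 5.83 FPKM in silex (q = 0.979 in the authors' deposited table), and DRM1 was left out of their test at 0.00945 FPKM in epic2 and 0.00754 FPKM in silex. SUVH9, which helps place RNA polymerase V on methylated DNA, was not called at 20.4 FPKM in epic2 and 17.4 FPKM in silex. HDA6, a histone deacetylase, and SWI3B, a chromatin remodelling subunit, were not called at 13.9 and 12.9 FPKM in epic2 and 14.4 and 12.1 FPKM in silex.

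Of 13 tested genes of other small RNA pathways 1 was called, lower in epic2, beside 8.8% of all tested rows called lower. AGO7, the Argonaute of trans-acting siRNAs, fell to 1.51 FPKM in epic2, against 2.72 FPKM in silex (log2 fold change -0.85, implied standard error 0.20, q = 0.000293 in the authors' deposited table). SE, AGO10, RDR6 and DCL1 were not called, with SE, a partner of DCL1 in microRNA processing, at 22.5 FPKM in epic2 and 21.9 FPKM in silex. AGO5 was left out of the authors' test at 0.0654 FPKM in epic2 and 0.0747 FPKM in silex. Of 12 subunits of RNA polymerase II, 1 was called higher, beside 9.51% of all tested rows. This was NRPB11, at 86.1 FPKM in epic2 and 71.2 FPKM in silex (q = 0.0378 in the authors' deposited table). Polymerases IV and V may use some of these 12 subunits too, which was not examined here. The most abundant of the others, NRPB12, NRPB5, NRPB10 and NRPB8B, were not called, at 315.2, 61.9, 55.1 and 55.3 FPKM in epic2 and 248.1, 68.2, 52.9 and 52.1 FPKM in silex. The median log2 fold change was 0.05 over the other small RNA genes and 0.08 over the polymerase II subunits.

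Among 5 genes that maintain DNA methylation, 1 was called higher, beside 9.51% of all tested rows. This was the methyltransferase gene MET1, at 10.1 FPKM in epic2 and 7.99 FPKM in silex. CMT3, CMT2, DDM1 and KYP were not called and had log2 fold changes between 0.05 and 0.24 in the authors' deposited table. All 5 of these genes had values above 0, and their median log2 fold change of 0.23 lay above the 0.20 of the 10 pathway genes. Of 4 listed genes known to respond to this pathway 2 were tested, and both were called lower, beside 8.8% of all tested rows. ROS1, a demethylase gene whose expression needs the pathway in Arabidopsis, fell to 11.7 FPKM in epic2, against 13.9 FPKM in silex (q = 0.0454 in the authors' deposited table). QQS, a gene next to methylated repeats, fell to 2.56 FPKM in epic2, against 10.9 FPKM in silex. SDC was left out of their test at 0.141 FPKM in epic2 and 0.181 FPKM in silex, while epic2 and silex each had FWA listed at 0. No methylation or small RNA data were analysed here, and whether the falls of ROS1 and QQS are tied to the pathway genes was not tested.

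**Figure D5:**
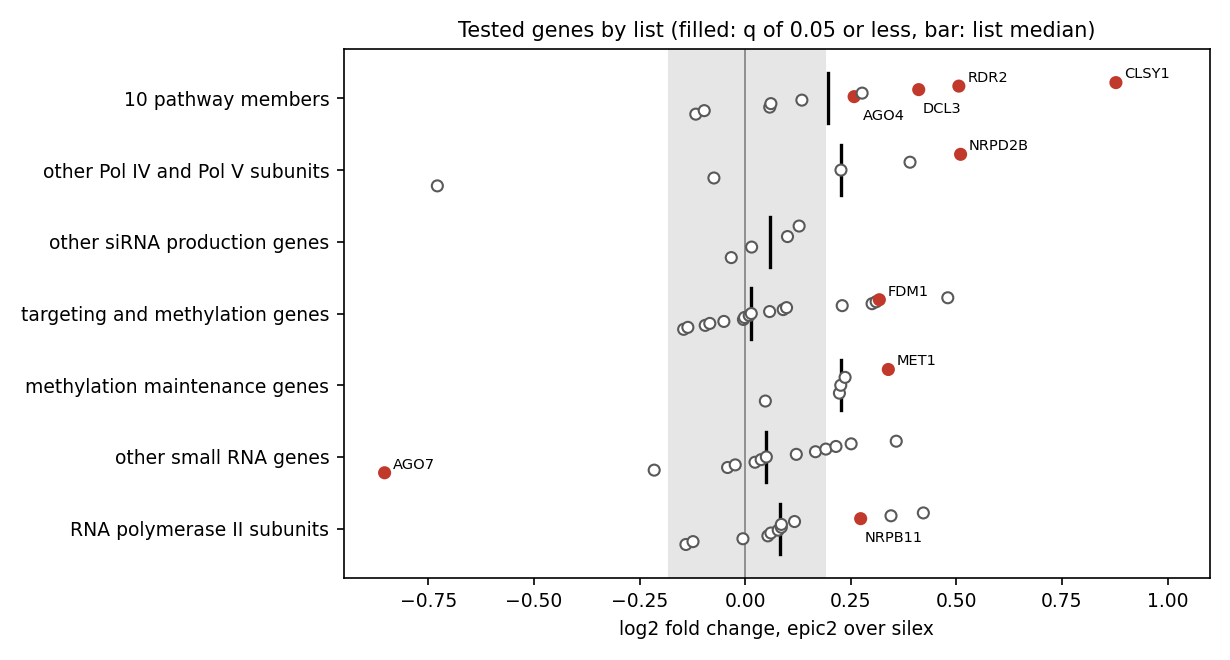
Log2 fold change, epic2 over silex (horizontal axis), of each tested gene with a row of its own in 7 gene lists. Filled red points passed a q of 0.05 and are named, black bars are list medians, and the grey band spans the interquartile range of tested rows. The median is 0.20 for the 10 pathway genes and 0.23 both for the other polymerase IV and V subunits and for the methylation maintenance genes, and AGO7 at -0.85 is the 1 called gene in these 7 lists that is lower in epic2.

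The tissue label was compared with marker genes. The 4 photosynthesis genes listed stood between 1721 and 7949 FPKM in epic2 and between 2146 and 10695 FPKM in silex, while 1 pollen gene and 2 seed genes were at most 0.143 FPKM in either group. Of 3 root genes, CASP1 had 1.52 FPKM in epic2 and 0.252 FPKM in silex (q = 0.0158 in the authors' deposited table), and the other 2, WOX5 and MYB36, were left out of their test. The summed level of the 3 root genes was 1.67 FPKM in epic2 and 0.496 FPKM in silex, and the part of this difference in the changes above was not tested.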

How the data were processed

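Per the labels' protocols, total RNA of 6 samples was made into TruSeq version 2 libraries. The submitters' processing notes name TopHat, Cufflinks, Cuffdiff and build TAIR10 but no version or setting. The authors deposited FPKM values, 1 per group, with replicates pooled. No source used here says how the libraries were scaled. Per the file headers, the deposited log2 fold change, a test statistic (used as a score), and p-values and q-values compare epic2 with silex. The statistic has the sign opposite to the fold change, and the p-value equalled its two-sided normal p. The standard error is therefore the size of the fold change divided by that of the statistic. These p-values rest on the error that Cuffdiff assigned to each row, with settings unknown, and do not reach beyond these 6 samples. The spread between the samples of a group, which may be technical, cannot be seen in the pooled values.

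Rows were matched by code, symbol or synonym and position to RefSeq TAIR10.1, which shares its nuclear coordinates with TAIR10. Of 24550 rows matched by name to 1 gene, 99.9% overlapped it. Rows naming several genes were left out of list counts (NRPD4, NRPE5, DCL2 and AGO1). Calls are at the authors' q of 0.05. The stretch before CLSY1 is not reported here. The members and lists were chosen with earlier results of these data known. Every member is named, and from each other list every called gene, up to 4 of the highest others and every untested gene. NRPB1, DRM2, IDN2, RDR1 and DCL4 fall outside this rule and were named for their role after their values were seen. The window comparison and the background at matched level were added after seeing the data. The Benjamini-Hochberg adjustment and the centring on the median were run on simulated data with normal noise of the implied standard errors. Such a run cannot check those errors, since it takes them as given. Tables were computed with pandas 2.3.3, scipy 1.17.1 and numpy 2.4.6 under Python 3.11.15, and figures drawn with matplotlib 3.10.9.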

Additional observations from a re-analysis of the deposited data

How the results depend on the processing

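The 10 pathway genes kept 4 calls at a mean of 1 FPKM or more and under Benjamini-Hochberg adjustment over all tested rows or over rows of 1 FPKM or more, with 0 lower, and had 5 at a q of 0.10. They had 1 call (CLSY1) at a q of 0.01, 0 under Bonferroni adjustment and 0 with a 1.5-fold minimum on log2(FPKM + 1). They had 2 (CLSY1 and RDR2) after centring on the median of tested rows of 1 FPKM or more. In that centring DCL3 and AGO4 had adjusted p-values of 0.0528 and 0.0504, just above the threshold. Over all tested rows the counts were 3462 calls at a q of 0.05, 2239 at 0.01, 834 under Bonferroni adjustment and 1102 with the 1.5-fold minimum.

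The other subunits of polymerases IV and V and the genes of targeting and methylation, with 1 call each, had 0 at a q of 0.01, under Bonferroni adjustment and with the 1.5-fold minimum. The targeting genes had 3 at a q of 0.10. The polymerase II subunits had 0 in these 3 settings, in both centrings and under Benjamini-Hochberg adjustment over all tested rows. The other small RNA genes and the methylation maintenance genes had 0 under Bonferroni adjustment and with the 1.5-fold minimum. Of the genes listed as known to respond to the pathway 2 were tested, ROS1 and QQS. Both were called lower at the authors' q of 0.05, beside 8.8% of all tested rows. QQS alone was called at a q of 0.01, under each of the 3 p-value adjustments, with the 1.5-fold minimum and after centring within the level bin. The 10 genes kept their signs under both pseudocounts (1 and 0.1 FPKM) and both centrings. CLSY1 changed by 0.58 on the log2(FPKM + 1) scale, which understates low genes.

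No paired analysis was possible because the deposited values are pooled over the 3 samples of each group. For the same reason replicates were not left out in turn.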

Other observations

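The standard errors implied by the authors' test did not go below 0.0851 on the log2 scale over tested rows, and that of AGO4, the most abundant of the 10 genes, was 0.0909. The smallest change called in the authors' deposited table was 0.22 on the log2 scale, a fold of 1.16, so that the change of AGO4, at 0.26, lies near the smallest called. The median called change was 1.41-fold, below that of CLSY1 and RDR2 and above those of DCL3 and AGO4.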
